A study of Mus musculus with 2 samples.

Results

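The neurons described here were proposed as A-beta low-threshold mechanoreceptors, the large, fast-conducting touch neurons of the dorsal root ganglion, and were chosen by a gate on measured genes. A barcode entered with at least 5000 unique molecular identifiers (UMIs), at least 2 Ntrk3 and 5 Nefh UMIs per 10000, no Colq UMI, and fewer than 2 Ntrk2, 3 Pvalb, 5 Calca, 3 Mrgprd, 3 Trpm8, 5 Th and 5 summed Nppb and Il31ra UMIs per 10000. The gate took 603 of 27777 barcodes in all, 369 of 15710 in the control library and 234 of 12067 in the Treg_Penk_KO library. Of the 10009 barcodes with at least 5000 UMIs, it took 6.25% of 5907 in the control library (exact binomial 95% interval 5.64 to 6.89) and 5.70% of 4102 in the other (5.01 to 6.46). The intervals of the shares overlapped.

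Cervical ganglia were profiled as fixed single cells with paired gene probes, in mice treated with tamoxifen and then for 3 days with imiquimod, an irritant that causes psoriasis-like skin inflammation. Mice of the control group had the genotype Foxp3 CreER; Penk fl/WT, and those named Treg_Penk_KO had Foxp3 CreER; Penk fl/fl. Both groups thus carried a tamoxifen-dependent recombinase at Foxp3, which marks regulatory T cells, and at least 1 floxed allele of Penk, and no group went without tamoxifen or imiquimod. Each group was 1 library of pooled tissue, and the sources used here do not give the number of mice pooled. There is therefore no replicate check and no test: each ratio below compares 2 libraries, and every 95% interval covers counting error only, not the spread between cells or animals.

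Touch neurons of this kind wrap or contact specialised endings in hairy and glabrous skin and report indentation, vibration and hair movement. Many depend during development on Ret, the signalling receptor of the GDNF family, and on transcription factors of the Maf family, and they share Ntrk3, the receptor of neurotrophin 3, with muscle proprioceptors. Because of that overlap the neurons were set beside 2 neighbouring gates. Proprioceptor-gated neurons met the same limits except on Pvalb, with at least 3 UMIs per 10000, and on Colq, which was not limited (620 and 355 barcodes). No Colq UMI was found in 481 and 299 of these. A-delta-gated neurons had at least 5 Nefh and 2 Ntrk2 UMIs per 10000 and at least 1 Colq UMI, with no lower limit on Ntrk3 (163 and 98 barcodes).

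The Ntrk3/Nefh-gated neurons had median depths of 21471 UMIs (5973 genes detected) in the control library and 18357.5 UMIs (5433.5 genes) in the other, with a range of 5002 to 356717 and of 5053 to 246868 UMIs. Proprioceptor-gated neurons had medians of 23234.5 and 18860 UMIs. A-delta-gated neurons were deeper, at 69011 and 74175 UMIs, which the demand for a Colq UMI favours. In sum the gated neurons gave 2.13e+07 and 9.56e+06 UMIs, and each level below is a gene's UMIs in such a sum, scaled to counts per 1000000 (CPM). Of the droplet barcodes in the files, 4723 occurred in both libraries: 35.5% of the control neurons and 55.1% of the Treg_Penk_KO neurons sat in such a droplet, and 6 droplets held a gated neuron of each library. The median summed level of glial transcripts, among them Fabp7 and Apoe, was 11.3 and 8.81 UMIs per 10000. What part these shared droplets and glial transcripts have in the results was not tested.

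Penk, the enkephalin precursor gene that the floxed allele targets (ENSMUSG00000045573, GRCm39 chromosome 4, 4132722 to 4141856, minus strand), was barely detected in the gated neurons. The control library held 8 UMIs of it (0.375 CPM) and the Treg_Penk_KO library 0, an observed ratio of 0 with an upper bound of 1.31, so a difference was not detectable at this depth. In the proprioceptor-gated neurons there were 13 and 0 UMIs and in the A-delta-gated ones 8 and 0. Other neurons, defined by at least 5 Snap25 UMIs per 10000, had 3.19 CPM of Penk (control) against 0.0112 CPM (Treg_Penk_KO). Whether a Penk probe lies within the floxed stretch does not appear in the sources, so these values do not check the labels. The recombinase was placed at Foxp3, a gene of regulatory T cells and not of neurons. Why Penk was lower in other neurons of the Treg_Penk_KO library was not tested.

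The genes of the gate are given as a description, since they chose the neurons. Ntrk3 ranged from 2.002 to 20.2 UMIs per 10000 with a median of 5.69 in the control library, and from 2.007 to 18.5 with a median of 5.28 in the other. Nefh, the heavy neurofilament of large fibres, had medians of 39.2 and 42.5. The limits cut through a continuum. In the control library the nearest barcode inside and outside had 2.002 and 1.971 for Ntrk3, 2.98 and 3.03 for Pvalb, and 4.98 and 5.00 for Calca. In the Treg_Penk_KO library the corresponding values were 2.007 and 1.996 for Ntrk3, 2.94 and 3.03 for Pvalb, and 4.98 and 5.31 for Calca. Barcodes that missed the gate on Pvalb alone numbered 481 and 299 and those that missed it on Ntrk3 alone 418 and 306, so each of these limits set aside more barcodes than the gate kept. Calca alone set aside 116 and 63, Ntrk2 alone 84 and 58, Nefh alone 43 and 21, and Colq alone 15 and 7.

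Of the 4 proposed markers that the gate did not use, Ret was present, Calb1 was scarce, and Nxph1 and Esrrb were nearly missing. Ret (ENSMUSG00000030110, GRCm39 chromosome 6, 118128706 to 118174769, minus strand) stood at 379 CPM in the control library and 400 CPM in the other. It was 5.10-fold and 6.92-fold above the proprioceptor-gated neurons (74.3 and 57.7 CPM) and 3.69-fold and 5.56-fold above the A-delta-gated neurons (103 and 71.8 CPM). At least 2 Ret UMIs per 10000 were found in 71.0% of the control neurons and 69.7% of the Treg_Penk_KO neurons, against 12.9% and 11.8% of proprioceptor-gated neurons.

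Calb1 (ENSMUSG00000028222, chromosome 4, 15881155 to 15908085, plus strand), which encodes the calcium-binding protein calbindin, had 23.3 and 24.4 CPM. That was close to the proprioceptor-gated neurons (21.4 and 15.2 CPM) and below the A-delta-gated ones (92.5 and 70.9 CPM). No Calb1 UMI was seen in 291 of 369 control and 196 of 234 Treg_Penk_KO neurons. Of all barcodes with at least 5000 UMIs, 5 Nefh UMIs and 1 Calb1 UMI per 10000 (444 and 297), the gate held 29 and 23, and 302 and 214 of them were below its Ntrk3 limit.

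Nxph1 (ENSMUSG00000046178, chromosome 6, 8948431 to 9249616, plus strand), a secreted ligand of neurexins, had 25 UMIs in the control neurons and 18 in the other, or 1.17 and 1.88 CPM. Proprioceptor-gated neurons held 55.0 and 63.9 CPM, 46.9-fold and 33.9-fold more. Esrrb (ENSMUSG00000021255, chromosome 12, 86407887 to 86568409, plus strand), an orphan nuclear receptor, had 9 UMIs in each library, or 0.422 and 0.942 CPM, against 24.7 CPM in both proprioceptor-gated sums. Of the Nefh barcodes with at least 1 Nxph1 UMI per 10000 (298 and 187), only 4 and 2 lay within the gate, while 160 and 95 were proprioceptor-gated. For Esrrb at 0.5 UMIs per 10000 the gate held 1 of 164 and 1 of 104 such barcodes, and the proprioceptor gate 94 and 66. The data thus go against the proposed name for Nxph1 and Esrrb, 2 of the 4 unused markers. Calb1, scarce and below the A-delta-gated level, does not bear the name out either. Of the 4, Ret alone was higher than in both comparators by several fold. The cells are therefore called Ntrk3/Nefh-gated neurons below.

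**Figure D1:**
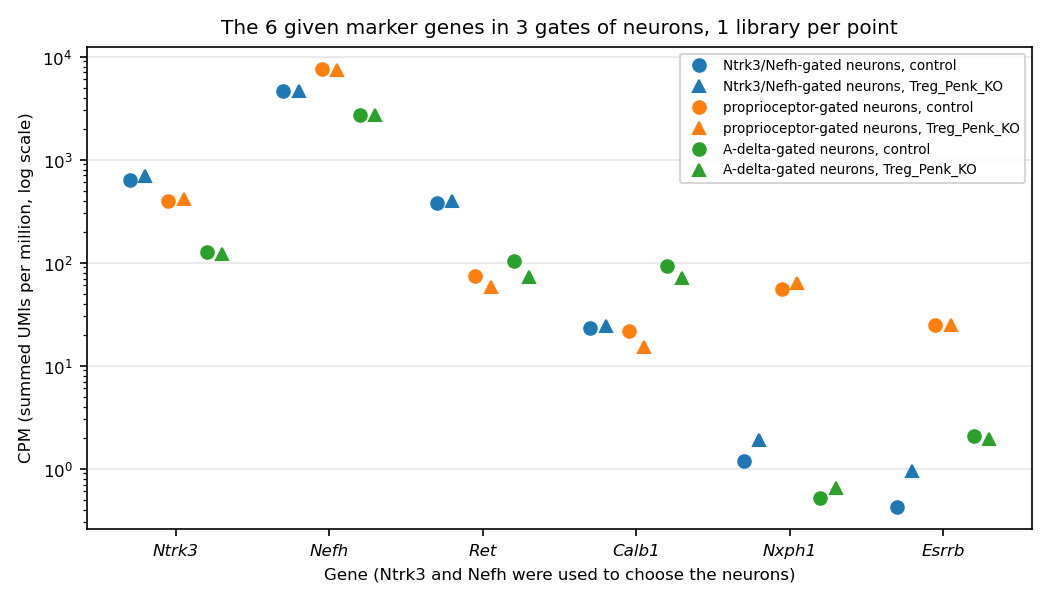
Summed level of the 6 proposed markers (x axis) in CPM on a log axis (y axis) in Ntrk3/Nefh-gated, proprioceptor-gated and A-delta-gated neurons, with a circle for the control and a triangle for the Treg_Penk_KO library. Ret stands highest in the Ntrk3/Nefh-gated neurons (379 and 400 CPM), whereas Nxph1 and Esrrb stand highest in the proprioceptor-gated ones.

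The plot of the 6 markers shows that the 2 libraries lay close together for each abundant marker and gate, while the gates differed by more than 10-fold for Nxph1 and Esrrb. Levels are compared only within a gene, since probe pairs can differ in number and efficiency between genes.

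Against proprioceptor-gated neurons, 473 of 9097 genes with a mean of at least 10 CPM were at least 2-fold higher in both libraries (5.2%) and 325 at least 2-fold lower (3.57%). The comparators were chosen by Pvalb, so these folds describe how the gates differ and support no identity. Trappc3l, a paralog of a vesicle-tethering subunit, had the largest smaller fold, with 602 and 538 CPM against 48.7 and 19.5 CPM (12.4-fold and 27.6-fold). Next came Hoxd1, a homeobox factor (89.5 and 117 CPM, 11.1-fold and 18.7-fold), Gng8, a G protein gamma subunit (45.1 and 34.6 CPM, 10.6-fold and 12.7-fold), and Tmem54 (23.3 and 23.1 CPM). Chrm2, the M2 muscarinic receptor, had 69.3 and 59.96 CPM against 7.07 and 4.15 CPM. Syt6, Sorl1, Cplx2, Aldh1a1 and Pcp4l1 completed the 10 genes with the highest folds. Sorl1, a sorting receptor, stood at 628 and 636 CPM against 64.7 and 53.5 CPM. Cplx2, a complexin of the vesicle release machinery, had 169 and 179 CPM against 19.0 and 11.5 CPM.

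The lowest genes against proprioceptor-gated neurons included known proprioceptor genes. Spp1, the matrix protein osteopontin, had 35.2 and 44.5 CPM against 708 and 679 CPM (20.1-fold and 15.3-fold lower). Etv1, the ETS factor needed for muscle spindle afferents, had 85.0 and 67.4 CPM against 779 and 776 CPM (9.16-fold and 11.5-fold lower). Shox2, a homeobox factor, had 8.25 and 11.1 CPM against 106 and 104 CPM. Wls, which carries Wnt proteins to the surface, and Sv2a, a synaptic vesicle protein, were 16.5-fold and 15.5-fold lower in the control library and 19.7-fold and 21.3-fold lower in the other. Klhdc8a, Plcl2, Plekhg1, Adcy8 and Esrrg made up the rest of the 10.

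Across the list of proprioceptor genes, 11 of 15 eligible members were at least 2-fold lower, against 3.57% of all genes. The list's median log2 fold was -3.17 and -3.53 beside 0.05 and 0.04 over all genes. Whrn, a scaffold protein of proprioceptors and hair cells, was at 4.08 and 2.30 CPM against 234 and 222 CPM. Runx3, the factor that directs proprioceptor fate, was at 24.2 and 26.4 CPM against 109 and 116 CPM. Fxyd7 and Sema5a of the same list were at least 2-fold higher. Sema5a, an axon guidance protein, had 103 and 101 CPM against 32.1 and 28.4 CPM. The list had been drawn up with results of these data known, and Pvalb in the gate separates the same neurons, so its direction is not independent evidence.

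Against A-delta-gated neurons, 271 of 9179 genes were at least 2-fold higher in both libraries (2.95%) and 302 at least 2-fold lower (3.29%). Trappc3l again led, at 18.2-fold and 75.8-fold, followed by Pappa2, a protease of insulin-like growth factor binding proteins, Aldh1a1, a retinaldehyde dehydrogenase, Runx3 and Gng8. Pappa2 had 20.8 and 18.0 CPM against 0.299 and 1.16 CPM, a fold that rests on few UMIs in the comparator. Grm8, an inhibitory glutamate receptor, had 61.0 and 74.7 CPM against 5.38 and 4.65 CPM. Oprd1, Ptgir, Neto1 and Kcnq5 completed the 10 highest. Ptgir, the prostacyclin receptor, had 67.7 and 67.8 CPM against 6.502 and 3.88 CPM.

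Genes lower than in A-delta-gated neurons were led by Tmem72 (12.1 and 9.42 CPM against 243 and 305 CPM) and Necab2, a calcium-binding protein (19.2 and 17.5 CPM against 337 and 370 CPM). Fxyd2, a regulatory subunit of the sodium pump, stood at 288 and 216 CPM against 3543 and 4148 CPM. P2ry1, a receptor for ADP, had 28.1 and 35.5 CPM against 309 and 341 CPM. Kcnj4, Rgs5, Pld5, Lhfpl2, Klhdc8a and Cbln2 were the others. Of 7 eligible A-delta touch genes, 3 were at least 2-fold lower, among them Cadps2 and Robo2, and Gfra1 was at least 2-fold higher. The shares over all genes were 3.29% lower and 2.95% higher. Cadps2, a priming factor of dense-core vesicles, was at 6.28 and 8.58 CPM against 177 and 204 CPM.

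**Figure D2:**
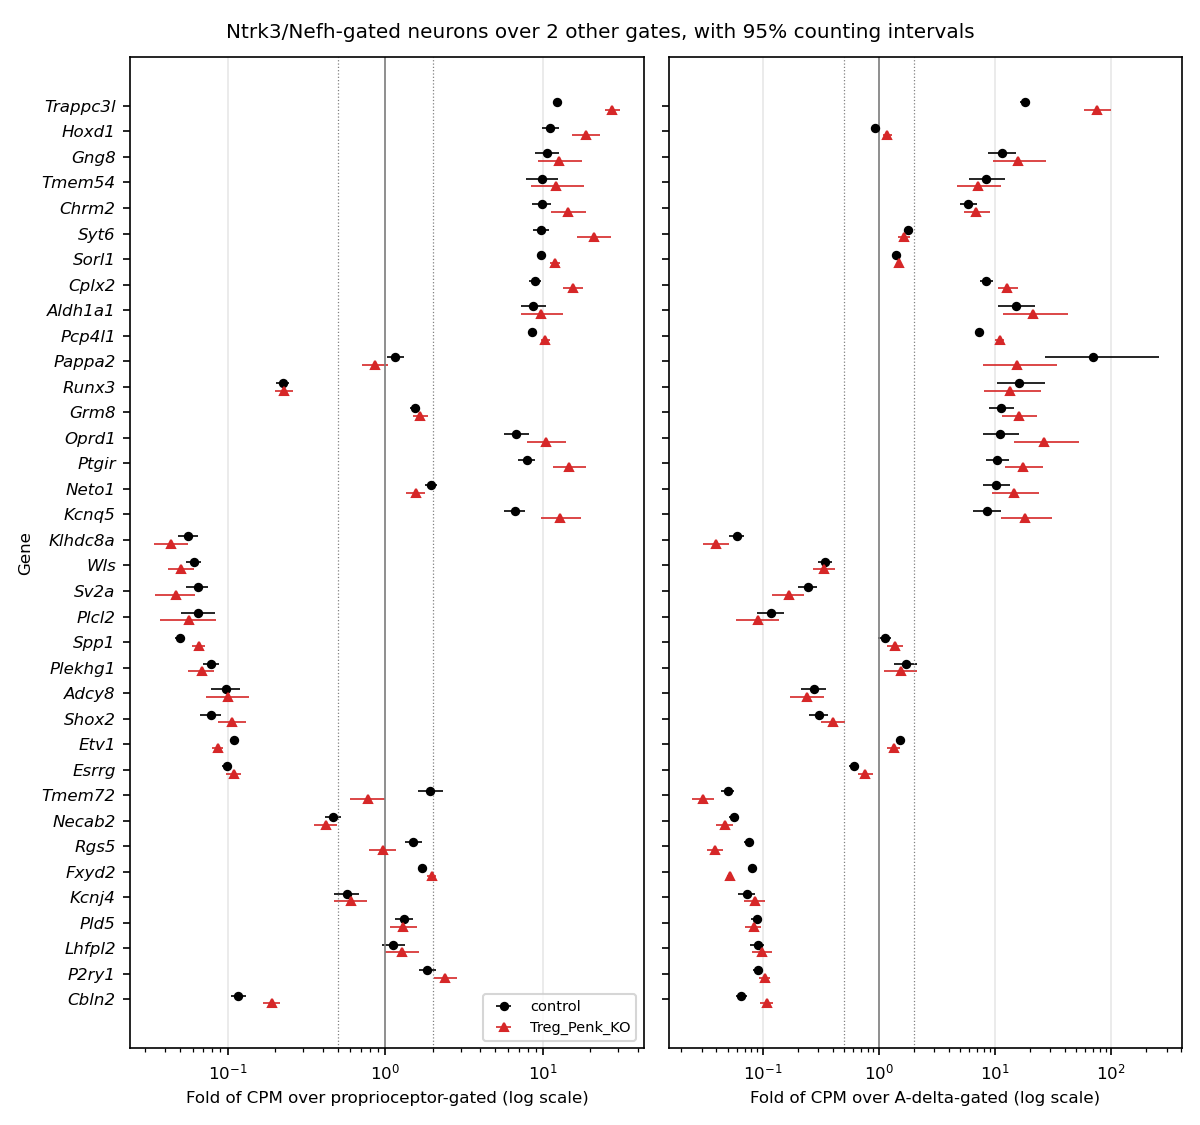
Fold of CPM in Ntrk3/Nefh-gated neurons over proprioceptor-gated (left) and A-delta-gated neurons (right) on log axes, for the 36 genes with the largest folds, with circles for the control and triangles for the Treg_Penk_KO library, bars for 95% counting intervals and dotted lines at 2-fold. Trappc3l, Gng8, Chrm2, Cplx2, Aldh1a1, Oprd1, Ptgir and Kcnq5 stand right of the 2-fold line in both panels, and Klhdc8a, Sv2a and Cbln2 stand left of it in both.

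The plot of folds over the 2 gates separates genes that differ from both comparators from those that differ from 1 of them. That a gene lies on the same side in both libraries follows from the rule that named it. Runx3 stood on opposite sides, 4.49-fold and 4.39-fold below the proprioceptor-gated neurons and 16.2-fold and 13.6-fold above the A-delta-gated ones. No Runx3 UMI was seen in 297 of 369 control and 192 of 234 Treg_Penk_KO gated neurons. Runx3, Pappa2 and Kcnq5 differed widely between the subsets described below, so their folds are not traits of every gated neuron. Trappc3l, Ptgir and Gap43 were lower in the comparators of the Treg_Penk_KO library than in those of the control, so their folds were larger there.

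Growth factor receptors and their ligands came next. Of 11 eligible genes in the neurotrophin and GDNF list, 6 were at least 2-fold higher than in proprioceptor-gated neurons and 2 lower, and 3 were higher and 1 lower than in A-delta-gated neurons. Beside these counts stand 5.2% higher and 3.57% lower over all genes against the first gate, and 2.95% and 3.29% against the second. Gfra1, the GDNF-binding co-receptor of Ret, had 377 and 349 CPM against 61.8 and 58.1 CPM in the proprioceptor-gated and 79.7 and 66.0 CPM in the A-delta-gated neurons. Gfra2, the neurturin co-receptor found with Ret in many touch neurons, was at 27.2 and 23.8 CPM and not past the step in either comparison. Ngfr, the p75 receptor, had 1033 and 1161 CPM against 313 and 291 CPM in proprioceptor-gated neurons, but 894 and 922 CPM in A-delta-gated ones. Bdnf, the ligand of Ntrk2, had 171 and 185 CPM against 37.7 and 26.7 CPM in proprioceptor-gated neurons. Sort1, the sorting receptor sortilin, was 4.97-fold and 6.07-fold lower than in proprioceptor-gated and 5.61-fold and 6.89-fold lower than in A-delta-gated neurons.

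Piezo2, the channel that carries gentle touch, had 330 and 352 CPM, with 188 and 177 CPM in proprioceptor-gated and 462 and 460 CPM in A-delta-gated neurons, short of the 2-fold step in each. Of 14 eligible genes of this list 1 was at least 2-fold higher and 2 lower than in proprioceptor-gated neurons, and of 15 eligible ones 4 were higher and 1 lower than in A-delta-gated neurons. Over all genes the shares were 5.2% and 3.57% in the first comparison and 2.95% and 3.29% in the second. Asic3, an acid-sensing channel, had 277 and 251 CPM, 3.48-fold and 2.22-fold above the proprioceptor-gated and 3.77-fold and 4.19-fold above the A-delta-gated neurons. Asic1 lay between them, with 95.6 and 89.5 CPM against 341 and 366 CPM and against 14.0 and 9.56 CPM. Stoml3, a stomatin-like modulator of Piezo channels, had 1 UMI in each library, too few for a comparison.

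The potassium channels of the gated neurons differed in both directions from proprioceptor-gated neurons, with 9 of 34 at least 2-fold higher and 5 lower, where over all genes 5.2% were higher and 3.57% lower. The higher ones included Kcnd3, Kcnip3, Kcnh5, Kcnq5, Kcns3, Kcng4 and Kcnt1, and the lower ones Kcnc1, Kcnip1, Kcnip2 and Kcnk1. Kcnq5, an M-current channel subunit, had 38.7 and 41.9 CPM against 5.86 and 3.26 CPM in proprioceptor-gated and 4.56 and 2.33 CPM in A-delta-gated neurons. Kcnc1, a channel of fast-spiking neurons, had 62.2 and 63.7 CPM against 351 and 306 CPM. Hcn2, a pacemaker channel, was at 397 and 415 CPM against 967 and 916 CPM.

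The summed levels of 2 sodium channels of small fibres were higher than in proprioceptor-gated neurons, and that of Scn10a also than in A-delta-gated ones. Scn10a, the Nav1.8 channel of nociceptors, had 237 and 212 CPM against 88.8 and 44.5 CPM in proprioceptor-gated and 114 and 63.2 CPM in A-delta-gated neurons. Scn11a, the Nav1.9 channel, had 103 and 89.99 CPM, 3.08-fold and 5.27-fold above the former. Scn1a and Scn8a, channels of large fibres, differed by less than 2-fold from both gates (396 and 401 CPM, and 342 and 356 CPM). The other neurons held 939 and 1030 CPM of Scn10a. Endothelial-gated barcodes (36 and 34, median 8628 and 7294 UMIs, with at least 10 summed Cldn5 and Pecam1 UMIs and fewer than 2 Snap25 UMIs per 10000), which should lack the gene and so gauge free RNA, held 141 CPM of it in the control library and 169 CPM in the other. With every barcode thinned to 5000 UMIs, 41.5% and 43.2% of the gated neurons had a Scn10a UMI (69.6% and 66.7% without thinning), against 33.3% and 47.1% of the endothelial-gated barcodes, so the shares over all gated neurons are not read as expression. Both comparators held less Scn10a than the endothelial-gated barcodes in each library. Of the subsets described below, the Scn10a-high held 764 and 767 CPM and the Fxyd2-high 510 and 445 CPM. The Calb1-high held 47.5 and 35.1 CPM and the Runx3-high 76.7 and 13.4 CPM, so the higher sum is not a trait of every gated neuron.

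Vesicular glutamate transporters showed a reverse pair. Slc17a7, the transporter VGLUT1, was at 339 and 367 CPM against 1369 and 1375 CPM in proprioceptor-gated neurons, and Slc17a6, the transporter VGLUT2, at 353 and 412 CPM against 138 and 133 CPM. Transcription factors included 7 of 31 that were at least 2-fold higher (Mafa, Pou4f1, Prrxl1, Tox3, Ebf3, Hopx and Casz1) and 7 that were lower (Shox2, Runx3, Etv1, Esrrb, Esrrg, Onecut1 and Cux2) than in proprioceptor-gated neurons. The shares over all genes were 5.2% and 3.57%. Maf, the factor of rapidly adapting mechanoreceptors, had 251 and 257 CPM against 219 and 215 CPM and was 2.13-fold and 2.48-fold above the A-delta-gated neurons. Mafa, expressed early in Ret-dependent touch neurons, had 18.6 and 22.4 CPM against 8.63 and 5.46 CPM. Of the nociceptor and itch list, 6 of 12 eligible genes were at least 2-fold higher and 2 lower than in proprioceptor-gated neurons, against 5.2% and 3.57% of all genes, and Scn10a, Scn11a, Calcb, P2rx3 and Nmb were among the higher ones. The background of Scn10a in endothelial-gated barcodes, given above, bears on this count. P2rx3, an ATP-gated channel, had 208 and 210 CPM against 45.6 and 31.3 CPM.

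The list of touch neuron identity genes split evenly. Of 22 eligible genes 7 were at least 2-fold higher than in proprioceptor-gated neurons (among them Ret, Mafa, Spock3, Ntng1, Fxyd7 and Tafa1) and 7 lower (Nxph1, Esrrb, Shox2, Slc17a7, Necab2, Cbln2 and Hapln4). Against A-delta-gated neurons 7 of 21 were higher and 7 lower, and Ret, Mafa, Spock3, Fxyd7 and Tafa1 were higher in both comparisons. Each count was above the share over all genes. Those shares were 5.2% higher and 3.57% lower in the first comparison and 2.95% and 3.29% in the second. The list's median log2 fold was 0.08 and 0.13 over the proprioceptor-gated neurons, close to that of all genes.

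Metabolic, interferon and injury genes are given against both gates. Among all genes 5.2% were higher and 3.57% lower than in proprioceptor-gated neurons, and 2.95% and 3.29% than in A-delta-gated neurons. Of 28 genes of oxidative and glycolytic metabolism, 5 were at least 2-fold lower than in proprioceptor-gated neurons and 0 higher, with a median log2 fold of -0.52 and -0.55. Against A-delta-gated neurons 1 was lower and 0 higher, near those shares, with a median of -0.28 and -0.31. Ldhb, a lactate dehydrogenase subunit, had 605 and 612 CPM against 1410 and 1411 CPM, and Ckmt1, the mitochondrial creatine kinase, 482 and 513 CPM against 1098 and 1125 CPM. Of 31 interferon response genes, 6 were at least 2-fold higher than in A-delta-gated neurons and 0 lower. Against proprioceptor-gated neurons 2 of 30 were higher and 1 lower, near the shares over all genes. Irf7, a factor that amplifies interferon production, had 126 and 87.6 CPM against 34.7 and 28.4 CPM. Of 10 injury and regeneration genes, 4 were higher than in proprioceptor-gated neurons (Gap43, Cacna2d1, Vgf and Sema6a) and 0 lower, while against A-delta-gated neurons 3 were higher and 2 lower. None of the glial, fibroblast, endothelial or macrophage markers was past the step in either comparison.

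Opioid receptors bear on the targeted ligand gene, so they are given in full. Oprd1, the delta receptor that binds enkephalins (ENSMUSG00000050511, chromosome 4, 131838037 to 131871842, minus strand), had 619 UMIs in the control neurons and 356 in the other, or 29.0 and 37.3 CPM. The ratio of Treg_Penk_KO to control was 1.28 (1.12 to 1.47). With the subsets described below weighted equally it was 1.106, under that interval. It was 1.168 with barcodes weighted equally, 1.143 with barcodes thinned to 5000 UMIs and 1.399 with only droplet barcodes found in 1 library. Proprioceptor-gated neurons held 4.30 and 3.56 CPM, A-delta-gated neurons 2.62 and 1.42 CPM and the other neurons 11.1 and 9.83 CPM. With every barcode thinned to 5000 UMIs, 9.49% and 12.8% of the neurons had an Oprd1 UMI (46.9% and 40.6% without thinning), against 5.56% of 36 and 0% of 34 endothelial-gated barcodes. At the floor of 3 counts, the 0 of 34 would be 8.82%, which is not an exact bound. No interval is given for these thinned shares, so they are not read as lying above the background. Oprm1, the mu receptor, had 59.5 and 45.2 CPM, a ratio of 0.760 (0.680 to 0.848), where the other neurons held 250 and 278 CPM and the ratios were 0.603 in proprioceptor-gated and 0.681 in A-delta-gated neurons. Its thinned share was 22.8% and 19.2%, against 11.1% and 32.4% of endothelial-gated barcodes, so that in the Treg_Penk_KO library it lay below the background. Oprl1, the nociceptin receptor, had 22.6 and 22.1 CPM (ratio 0.975, 0.826 to 1.15), and neither it, Oprd1 nor Oprm1 reached the 1.5-fold step used for the genotypes. With only droplet barcodes found in 1 library, however, the ratio of Oprm1 was 0.425, past the step. Oprk1, the kappa receptor, had only 17 and 12 UMIs (ratio 1.58, 0.687 to 3.502). Of the other peptide genes, Pomc had 65 and 30 UMIs, Pdyn 1 and 2, and Pnoc 4 and 0.

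To describe how the gated neurons varied among themselves, they were sorted into 8 subsets by single genes, in a fixed order and with limits in UMIs per 10000 chosen after the values had been seen. The 7 described here, sorted after the first, are Fxyd2 at 5, Calb1 at 1, Runx3 at 0.5, Scn10a at 2, Kcnq5 at 1, Trappc3l at 3, and the remaining neurons. These are ranges and not cell types, and a sorting gene is low in every later subset because of the order. Between 22 (Runx3) and 89 (Scn10a) neurons lay within 0.5 to 1.5 times a limit.

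The subsets' shares of the neurons lay close together in the libraries. Fxyd2-high neurons were 42 and 22 (11.4% and 9.40%), Calb1-high 26 and 15 (7.05% and 6.41%), and Runx3-high 41 and 25 (11.1% and 10.7%). Scn10a-high neurons were 49 and 39 (13.3% and 16.7%), Kcnq5-high 30 and 18 (8.13% and 7.69%), Trappc3l-high 61 and 29 (16.5% and 12.4%), and the remaining ones 65 and 47 (17.6% and 20.1%). The intervals of each pair overlapped. The shares of UMIs lay further apart. Fxyd2-high neurons gave 12.1% of the control UMIs and 4.73% of the Treg_Penk_KO UMIs, Trappc3l-high neurons 25.01% and 14.6%, and the remaining neurons 14.7% and 23.3%.

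**Figure D3:**
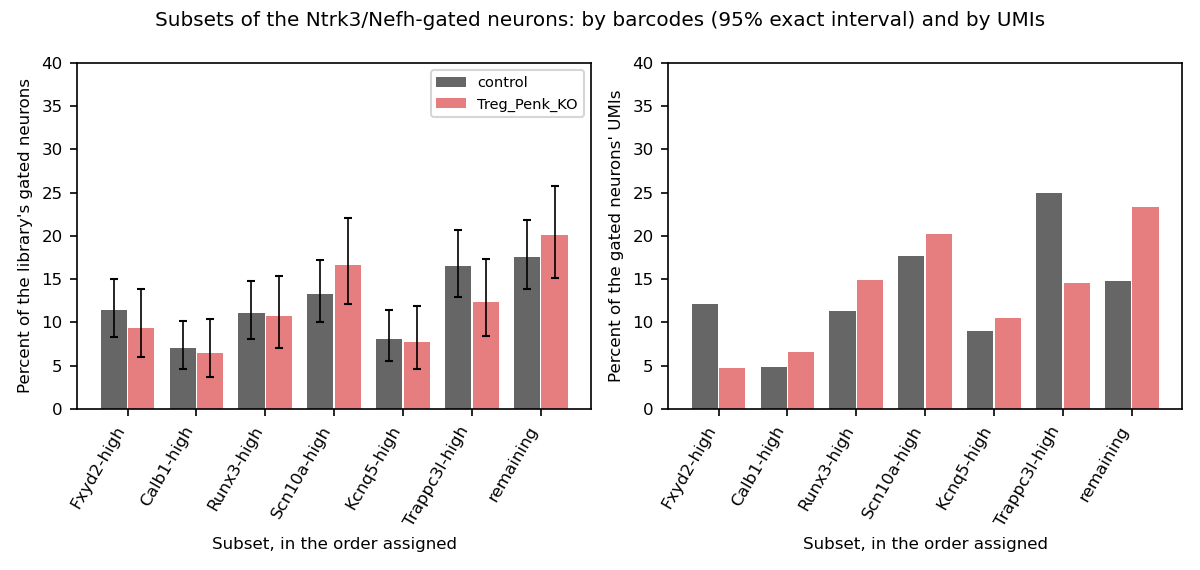
Share of each subset among the Ntrk3/Nefh-gated neurons of a library, by barcodes with exact 95% intervals (left) and by UMIs without an interval (right), in gray for the control and red for the Treg_Penk_KO library. The bars by barcodes overlap in their intervals for every subset, while by UMIs the Trappc3l-high subset stands at 25.01% and 14.6% and the remaining neurons at 14.7% and 23.3%.

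A summed level weights each subset by its UMIs and not by its barcodes, as the bars by UMIs show. Leading genes of a subset were ranked by the smaller of the 2 libraries' differences from the other subsets, so that they stand out in both libraries follows from that choice. The 26 and 15 Calb1-high neurons held Cbln2, a synaptic organiser (229 and 329 CPM), Calb2, the calcium-binding protein calretinin (197 and 222 CPM), and Shox2 (74.6 and 68.7 CPM). Calb2 was at most 10.7 CPM in the Runx3-high, Scn10a-high, Kcnq5-high, Trappc3l-high and remaining neurons. Slc17a7 was high here too, at 648 and 703 CPM.

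Runx3-high neurons led with Ndst4, a heparan sulphate enzyme (321 and 340 CPM), Cckar, a cholecystokinin receptor (210 and 177 CPM), Gprc5b, Slit2, a guidance ligand (96.9 and 98.6 CPM), and Asic1 (333 and 353 CPM). They also held the most Slc17a7 of any subset, 726 and 709 CPM. Runx3, which sorted them, stood at 143 and 163 CPM in them, and Pappa2 at 92.7 and 114 CPM. Pvalb, which the gate limits, was also highest in them, at 155 and 177 CPM. Asic1 stood at 109 CPM or less in the others except the Fxyd2-high control neurons (116 CPM).

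Scn10a-high neurons carried Htr3a, the ionotropic serotonin receptor (405 and 482 CPM), Gap43, a growth-cone protein (756 and 699 CPM), and Trappc3l (1199 and 1222 CPM). Oprm1 was highest in them, at 158 and 137 CPM. The part of doublets with nociceptors in this subset was not tested.

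Kcnq5-high neurons shared Gap43 (900 and 1033 CPM) with the Scn10a-high ones but had only 20.4 and 19.0 CPM of Scn10a. They led with Ptgir (270 and 272 CPM) and F2r, the thrombin receptor (390 and 329 CPM), and held the least Slc17a7, 49.2 and 76.9 CPM. Kcnq5, which sorted them, stood at 272 and 284 CPM. Trappc3l-high neurons had Etv1 (160 and 157 CPM), Chrm2 (112 and 151 CPM, with 232 and 154 CPM in the Kcnq5-high ones), Htr3a (334 and 125 CPM) and the most Ret (513 and 679 CPM).

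The remaining neurons, which passed none of the 7 limits, had leading genes of their own: Syt13, a synaptotagmin (64.2 and 76.4 CPM), Cdh3, P-cadherin (54.7 and 65.6 CPM), Ikzf1, a zinc-finger factor (59.1 and 51.2 CPM), Tnfrsf11a, the receptor RANK (113 and 129 CPM), and Tafa4, a secreted peptide (115 and 154 CPM). Ngfr reached 1891 and 1995 CPM, Piezo2 453 and 508 CPM and Oprd1 44.8 and 60.6 CPM, for each the highest of the 8 subsets in both libraries.

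The Fxyd2-high subset led with genes of other neurons. Rasgrp1 (216 and 357 CPM), Tmem45b (181 and 133 CPM) and Scn10a (510 and 445 CPM), genes of small unmyelinated neurons, stood out in it. Over the 7 subsets, 23.3% to 47.6% of the control and 40.0% to 72.2% of the Treg_Penk_KO neurons sat in a droplet found in both libraries.

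**Figure D4:**
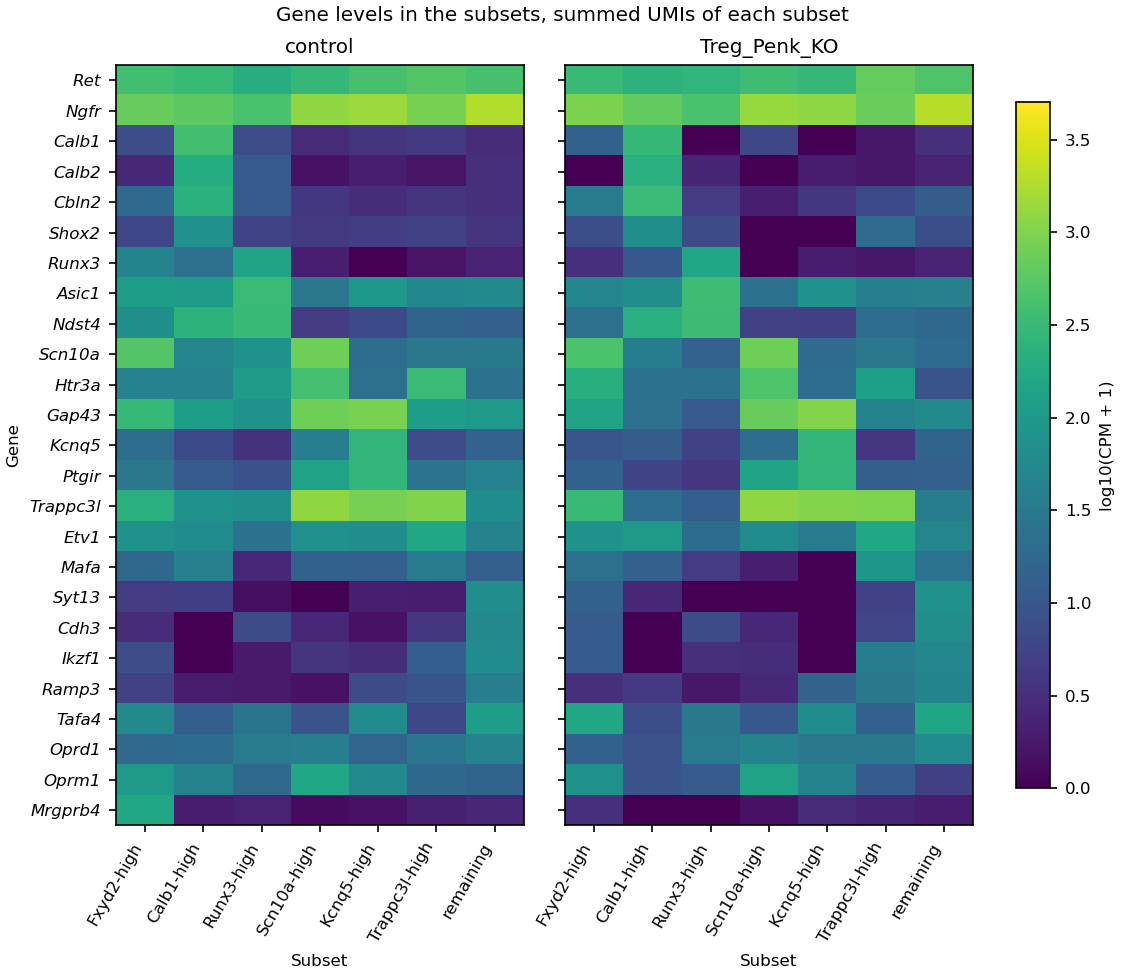
Level of 25 genes (rows) in 7 subsets (columns) of the control (left) and Treg_Penk_KO library (right), as log10 of CPM plus 1, from dark (low) to yellow (high). Calb1, Calb2 and Cbln2 share the Calb1-high column, Gap43 is bright in the Scn10a-high and Kcnq5-high columns, and Syt13, Cdh3 and Ikzf1 reach their highest level in the remaining neurons, in both panels.

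The panels of subset levels hold genes chosen for their level in both libraries or for the sorting, so their likeness is no result. Genes with unlike levels included Mrgprb4, a receptor of C-fibre neurons, with 157 CPM in Fxyd2-high control neurons and 2.21 CPM in the Treg_Penk_KO ones, and Htr3a in the Trappc3l-high subset.

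Between the genotypes, few genes differed in the summed neurons. Of 9075 genes with a mean of at least 10 CPM, 20 were at least 1.5-fold higher in the Treg_Penk_KO library (0.22%) and 70 at least 1.5-fold lower (0.771%). The median ratio was 0.991 and the 5th and 95th percentiles were 0.812 and 1.16. These counts compare 2 libraries and depend on how neurons are weighted: with the 8 subsets weighted equally, a weighting added after the data had been seen, 25 genes were higher and 37 lower, of which 11 and 27 were among the first 20 and 70.

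Several of the higher genes were leading genes of the remaining neurons, whose UMI share was larger in the Treg_Penk_KO library. Syt13 was at 10.6 and 19.4 CPM (ratio 1.83, 1.497 to 2.23), Cdh3 at 10.3 and 18.0 CPM (1.75), Ramp3, an accessory protein of calcitonin-family receptors, at 9.14 and 17.2 CPM (1.88), and Tafa4 at 37.4 and 62.2 CPM (1.66). Within the remaining neurons their ratios were 1.19, 1.1999, 1.21 and 1.33, and with subsets weighted equally 1.30, 1.29, 1.54 and 1.59. With each barcode weighted equally the ratios were 1.19, 1.17, 0.980 and 1.27, and with every barcode thinned to 5000 UMIs 0.838, 1.201, 0.526 and 1.457. None of the 4 stayed past the step as higher in either setting. Thinned ratios rest on far fewer UMIs and so carry more counting error, for which no interval is given. Within single subsets the ratio of Tafa4 was above 1 in 7 and below 1 in 1. For Ramp3 these numbers were 5 and 2, for Syt13 4 and 1, and for Cdh3 4 and 2. Subsets in which a library held 0 UMIs of the gene were left out. The part of the subsets' UMI shares in these ratios was not tested.

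Cbln2 (17.0 and 30.2 CPM, ratio 1.78) was also among the highest, though in the proprioceptor-gated and A-delta-gated neurons its ratio was 1.10 and 1.08. It fell short of the step without the Colq limit (1.37), with barcodes weighted equally (1.43), thinned (1.41) and without the Calb1-high subset (1.498). Col1a1 and Col3a1, fibrillar collagens of fibroblasts, had 25.2 and 47.6 CPM (ratio 1.89) and 18.5 and 32.1 CPM (1.74) respectively. In the A-delta-gated neurons their ratios were 2.39 and 2.01 and in droplets found in 1 library only 1.27 and 0.993. With at least 10000 UMIs per barcode they were 1.446 and 1.398, also short of the step, and without the highest 10% of glial UMIs Col3a1 was at 1.413. Of the fibroblast list, 2 of 4 eligible genes were past the step as higher, beside 0.22% of all genes. The list's summed level was 199 and 266 CPM. Pcdhga7, a protocadherin, and Tmem53 completed the 10 highest ratios, at 1.80 and 1.67. Pcdhga7 was at 1.433 without the Colq limit and 1.258 with barcodes weighted equally, and Tmem53 at 1.498 with subsets weighted equally.

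Nav2, a microtubule-associated protein of growing axons, differed alike in all 3 gates. It had 16.2 and 29.2 CPM here (1.81, 1.54 to 2.12), and the ratio was 1.77 in proprioceptor-gated and 1.85 in A-delta-gated neurons. It exceeded 1 in all 8 subsets. Cc2d1b, an endosomal sorting protein, had 49.1 and 25.7 CPM (0.525, 0.455 to 0.603) with 0.509 and 0.560 in the other gates, and Ppfia3, a liprin of the active zone, 15.5 and 7.64 CPM (0.494) with 0.458 and 0.512. These were the 3 of the 20 named genes past the step in the same direction in all 3 gates, which come from the same 2 libraries. Tmem267 and Rtl8b, chosen because an earlier analysis of these data named them in all neurons, had ratios of 0.557 and 0.626, below 1 in all 8 subsets, and Snapc1 and Tmem68 1.44 and 1.23. Snapc1 was past the step with barcodes weighted equally (1.68), thinned (1.69) and in droplets found in 1 library (1.63).

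Several of the lowest ratios belonged to genes that were high in glial barcodes. Nrarp, a feedback inhibitor of Notch signalling, had 17.4 and 6.91 CPM (0.396, 0.3002 to 0.516). Metrn, a secreted glial factor, had 24.4 and 10.8 CPM (0.442), Fam107a 14.997 and 6.80 CPM (0.454), and Ednrb, an endothelin receptor, 28.2 and 14.6 CPM (0.519). In 236 control barcodes of at least 1000 UMIs, chosen after the values had been seen for at least 20 Fabp7 and 50 Apoe UMIs and fewer than 2 Snap25 UMIs per 10000, the same genes stood at 265, 516, 175 and 687 CPM. Nr4a1, an immediate early gene, had 27.6 and 13.4 CPM (0.486) and 521 CPM in those barcodes. Of the 70 lower genes, 51 had more CPM in the Fabp7 and Apoe barcodes than in the gated neurons, against 46.1% of all 9075 genes and 10 of the 20 higher genes.

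The satellite glia list itself was lower, with a median log2 ratio of -0.44 over 8 eligible genes beside -0.01 over all genes, and a summed level of 2247 CPM (control) and 1514 CPM (Treg_Penk_KO). In proprioceptor-gated neurons the sums were 2733 and 2592 CPM and in A-delta-gated ones 3641 and 2817 CPM. Apoe, a lipid carrier made by satellite glia, had 1517 and 932 CPM (0.615, against 0.922 and 0.731 in the other gates). Its ratio was 0.828 with barcodes weighted equally, 0.811 thinned and 0.774 with subsets weighted equally, short of the step. By subset, Apoe was at 1781 and 171 CPM in the Scn10a-high and at 1160 and 174 CPM in the remaining neurons, while in the Runx3-high neurons it was at 1112 and 1142 CPM. Without the neurons in the highest 10% of glial UMIs, Nrarp, Metrn, Fam107a and Ednrb had ratios of 0.341, 0.317, 0.323 and 0.344, and Nr4a1 0.319. When thinned, Nrarp (0.818) and Ednrb (0.682) were short of the step, as was Ednrb with subsets weighted equally (0.692), while Metrn and Fam107a were past it in every alternative. The part of glial RNA in the lower genes was not tested. Pcdha4, Gna14 and Ppp1r1a were the other named lower genes, at 0.511, 0.522 and 0.532. Pcdha4 was at 0.849 when thinned. Gna14 and Ppp1r1a were short of the step in several settings, at 0.930 and 0.6795 with barcodes weighted equally, 0.826 and 0.7046 thinned, 0.7475 and 0.7395 with subsets weighted equally, and Ppp1r1a at 1.003 in droplets found in 1 library.

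**Figure D5:**
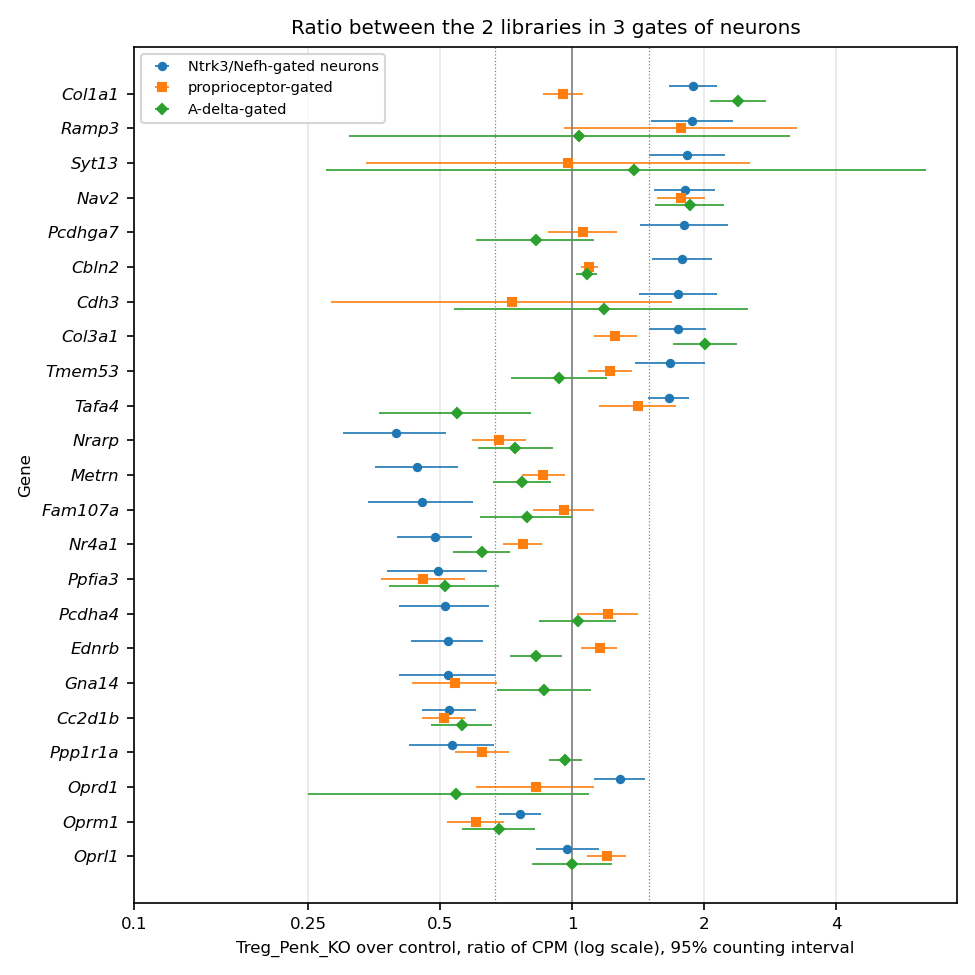
Ratio of CPM in the Treg_Penk_KO over the control library (log axis) for the 10 highest and 10 lowest named genes and 3 opioid receptor genes, in Ntrk3/Nefh-gated (blue circles), proprioceptor-gated (orange squares) and A-delta-gated neurons (green diamonds), with 95% counting intervals and dotted lines at 1.5-fold. Nav2, Ppfia3 and Cc2d1b lie past the step in all 3 gates, whereas Fam107a and Pcdha4 are past it in the Ntrk3/Nefh-gated neurons alone.

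The plot of ratios sets the genes shared by all 3 gates apart from those that differ between them. The difference between gates was not tested.

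By gene list, the ion channel, transmitter, growth factor receptor and transcription factor genes differed by less than the step. Over all 9075 genes 0.22% were past it as higher and 0.771% as lower. Counts of 0 in lists of these sizes are near those shares and are not read as a result. None of 12 sodium, 36 potassium and 16 HCN and calcium channel genes was past the step, nor any of 26 genes of glutamate release, 20 glutamate and GABA receptors, 11 growth factor receptors, 32 transcription factors and 22 calcium-binding genes, and the median log2 ratio of each lay between -0.11 and 0.03. Ret had a ratio of 1.05 (1.01 to 1.09), Piezo2 1.07, Scn1a 1.01, and Slc17a7 1.08. Neither did any of 22 node and axon genes, 10 injury genes or 28 metabolic genes pass it, although Tubb2b, a tubulin of growing axons, was at 168 and 119 CPM (0.705). Of 14 touch transduction genes 1 was past it, as lower, and Piezo2 was not.

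4 of 13 nociceptor and itch genes were at least 1.5-fold lower and none higher, beside 0.771% lower and 0.22% higher over all genes. The list's median log2 ratio was -0.37, that of all genes -0.01. Trpv1, the capsaicin and heat channel, was at 25.9 and 10.5 CPM (0.404), Tmem233 at 60.2 and 36.3 CPM (0.603) and Mrgprb4 at 20.1 and 1.36 CPM (0.0677). The ratio of Trpv1 was above 1 in 3 of the 8 subsets and below 1 in 5. In the Calb1-high neurons it stood at 249.9 and 4.79 CPM, and without that subset, an alternative added after the data had been seen, its ratio was 0.748, short of the step. Tmem233 was at 0.992 with barcodes weighted equally, 0.893 with subsets weighted equally and 1.001 when thinned, and Mrgprb4 at 0.843 without the Fxyd2-high and 1 further subset. A single barcode held 36.4% of the control Mrgprb4 UMIs and 23.0% of the Treg_Penk_KO Trpv1 UMIs. With subsets weighted equally, no list of at least 5 genes had a median beyond 0.25 on the log2 scale, against 2 lists (nociceptor and satellite glia) in the sum.

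Immediate early genes, induced within minutes by activity or handling, were at least 1.5-fold lower in 3 of 14 cases and higher in none, beside 0.771% and 0.22% over all genes. Their median log2 ratio was -0.21, that of all genes -0.01. Junb had 14.8 and 8.37 CPM (0.567), Egr1 16.2 and 10.6 CPM (0.654) and Nr4a1 is given above. Thinned to 5000 UMIs, Junb was at 0.789 and Egr1 at 0.946, short of the step. In the other gates Egr1 was at 0.625 and 0.609 and Junb at 0.699 and 0.839. Of 29 interferon response genes, Ifit3 alone was past the step, at 59.1 and 36.9 CPM (0.625), while Isg15, a ubiquitin-like modifier, was at 37.2 and 32.8 CPM (0.880). Of 18 glucocorticoid-induced genes, Gpx3, a secreted glutathione peroxidase, was past it at 28.7 and 16.1 CPM (0.562), whereas Tsc22d3 (1.01) and Fkbp5 (1.10) were not. With barcodes weighted equally Ifit3 was at 0.703 and Gpx3 at 0.694, short of the step.

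The identity lists and the markers of other cells complete the account. Among all genes 0.22% were past the step as higher and 0.771% as lower, so counts of 0 below are not read as a result. Of 19 touch neuron identity genes only Cbln2 was past the step (median log2 ratio 0.03), and of 9 proprioceptor, 5 A-delta and 3 opioid genes none was. None of 7 myelinating Schwann cell genes was past it (median -0.13, summed level 1337 and 1227 CPM), while 1 of 2 endothelial and 0 of 2 macrophage genes were. Red blood cell genes had 1 eligible gene, not past the step, and none of the 6 T cell markers was eligible: 2 had 0 UMIs among control and 4 among Treg_Penk_KO neurons, and their summed level was 0.281 and 0.209 CPM.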

How the data were processed

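Fixed single cells of cervical dorsal root ganglia were profiled with a probe panel, 1 pooled library per group. The authors deposited a filtered matrix of UMI counts per gene and barcode for each library, unnormalized whole numbers, per the file headers. Cell Ranger is given as version 7.0 per the labels' protocols and as 8.0.1 per the file headers, and the submitters' processing notes name Seurat. The series text speaks of single nuclei, the sample labels of single cells. No doublet caller was run, and every barcode passing the gate was kept.

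UMIs were summed per library and gate and scaled to CPM. Genes with a mean of at least 10 CPM over the sums compared were eligible, 2-fold steps in both libraries were used between gates and a 1.5-fold step between genotypes. Ratios have exact conditional binomial 95% intervals, and the shares of barcodes in the gate and its subsets exact Clopper-Pearson ones. Both cover counting error only. A floor of 3 counts stood in for 0. With 1 library per group no test was run. Named genes were the 6 given markers, the genes of the gate, the 10 largest folds in each direction against each comparator (by the smaller of the 2 libraries' folds), the 10 highest and 10 lowest genotype ratios in which no barcode held over 20% of a gene's UMIs, and the most abundant or shifted genes of 27 gene lists. Genes of the subsets and others singled out were chosen after their values were seen. The members and lists were chosen with earlier results of these data known. The code was tested on simulated data. Sums and intervals were computed with pandas 2.3.3, numpy 2.4.6 and scipy 1.17.1 under Python 3.11.15, and plots drawn with matplotlib 3.10.9. Gene positions are from GENCODE on GRCm39. Some items, among them 1 subset of the neurons, are not reported here.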

Additional observations from a re-analysis of the deposited data

How the results depend on the processing

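With 1 pooled library per group, no ratio has a replicate check, and depth limits genes under about 10 CPM. No paired analysis was possible because each group has 1 library. Of the 13 alternative settings, 3 were chosen after seeing the data: subsets weighted equally, leaving out the Fxyd2-high and 1 further subset, and leaving out the Calb1-high subset. Among the counts of neurons, genes and gene lists, 74 values stayed within 1.5 times of the main one and 27 did not. Restricted to droplet barcodes found in 1 library, 238 control and 105 Treg_Penk_KO neurons were left. Against 20 higher and 70 lower genes between the genotypes, there were 70 and 142 with those droplets, 363 and 347 with every barcode thinned to 5000 UMIs, 4 and 22 at a mean of at least 30 CPM, and 361 and 864 with no filter but 10 UMIs. Higher genes numbered 13 without the Colq limit and 123 with barcodes weighted equally. Lower genes numbered 159 without the highest 10% of glial UMIs and 37 with subsets weighted equally. Against proprioceptor-gated neurons the counts were 308 higher and 204 lower at 30 CPM and 982 and 675 with no filter, and against A-delta-gated neurons 157 and 197, and 699 and 582. Gene lists with a median beyond 0.25 (log2) numbered 2, but 5 with Pvalb below 1 per 10000, 1 at 30 CPM, 7 with no filter, 0 with subsets weighted equally and 1 without the Fxyd2-high and 1 further subset. The log2 ratio between genotypes reversed for Ramp3 with barcodes weighted equally (-0.02977) and thinned (-0.9279), for Syt13 (-0.2554) and Tmem233 (0.001067) thinned, and, in droplets found in 1 library, for Col3a1 (-0.00978), Ppp1r1a (0.004085) and the endothelial list's median (-0.002925). The red blood cell list's median was 0.2701 when thinned. For each, the cause was not tested. Nav2 kept a ratio of 1.75 to 2.70 and Cc2d1b of 0.470 to 0.649 over the alternatives.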
